A study of Mus musculus with 8 samples.

Results

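Type I interferon antiviral genes are the genes that cells switch on after they sense a virus or receive interferon. A list of 41 of them was followed in mouse epidermis. The members were matched by gene symbol, older symbols included, to the probe sets of an Affymetrix Mouse Genome 430 array. Of the 41, 36 had a probe set of their own, among 13201 genes named on the array. Ddx58, Oas1g, Isg15, Herc6 and Xaf1 had none and are not measured here, except that Isg15 shared a probe set with another gene name. Of the 36, 29 reached a mean log2 intensity of at least 5 in at least 1 genotype and were tested. Dhx58, Ifit2, Ifit3, Mx1, Cmpk2, Ifi44 and Sp100 did not, and their values are given with no test.

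The study compared the epidermis of 3 genotypes, to learn what the loss of Tcl1a and the return of human TCL1A do to keratinocytes (KCs). Tcl1-/- mice (3 arrays) lack Tcl1a. K14-TCL1 mice (3 arrays) are K14-TCL1;Tcl1-/-, so they lack Tcl1a as well and carry human TCL1A under the keratin 14 promoter, which is active in the basal KCs. WT mice (2 arrays) are C57bl/6. The study describes its mice as adult. The strain background of the mutants, and the exact age and the sex of the animals, are not given in the sources used here, so that genotype, strain and litter cannot be told apart. The skin was taken 3 days after depilation, and the epidermal sheets were freed from the dermis with dispase. Whole sheets were measured, so fewer cells of a type and less RNA per cell cannot be told apart.

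The arrays were alike in scale, with median log2 intensities of 6.52 to 6.55. The probe set of the deleted gene, Tcl1, lay between 4.90 and 5.16 on all 8 arrays and did not differ between Tcl1-/- and WT (0.09 ± 0.0692 (SE), limma, adjusted p = 0.355), so that it checks no label. K14-TCL1 replicate 2 stood somewhat apart, with root mean square log2 differences of 0.132 and 0.138 from its own group over the tested genes, where other arrays of 1 genotype differed by 0.101 to 0.108. The KC markers were the most abundant of the marker genes, with Krt14, Krt5, Krt1 and Krt10 at mean log2 intensities of 13.84 to 14.20 in each genotype. Of 7 markers of dermal fibroblasts and vessels, 1 (Dcn) reached the level for testing.

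Interferon is made by cells in which sensors have met foreign or misplaced nucleic acid. It binds its receptor on the same or a neighbouring cell, and the kinases there switch on STAT proteins, STAT2 among them, which join IRF9 to form the complex ISGF3. ISGF3 binds a short DNA element, the interferon-stimulated response element, in front of antiviral genes, whose products sense, cut, trap or mark viral molecules. In skin, KCs are among the first cells to meet a virus and express many of these genes.

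Stretches of 6 promoters are shown because they hold the core letters of that element before genes of 4 of the roles described below. The sequences are those of the RefSeq table for GRCm38.p6, which gives 250 bases before and 50 bases after each gene's start, and each stretch of 50 bases reads 5′ to 3′ on the gene's strand. Capitals mark the motif GAAANNGAAA, read on either strand, with overlapping matches run together. The stretches lie at chr4:156200859-156200908 (minus strand, Isg15), chr19:34640774-34640823 (plus strand, Ifit1), chr5:120907526-120907575 (minus strand, Oas1a), chr5:120777710-120777759 (minus strand, Oas3), chr8:71537568-71537617 (minus strand, Bst2) and chr12:26456543-26456592 (minus strand, Rsad2). All lie within the 145 bases before the start of the gene.
Isg15: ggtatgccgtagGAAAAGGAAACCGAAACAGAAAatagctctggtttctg
Ifit1: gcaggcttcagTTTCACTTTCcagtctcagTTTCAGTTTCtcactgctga
Oas1a: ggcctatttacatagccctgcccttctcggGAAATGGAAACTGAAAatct
Oas3: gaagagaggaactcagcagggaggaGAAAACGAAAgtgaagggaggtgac
Bst2: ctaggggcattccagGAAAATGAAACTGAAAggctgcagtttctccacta
Rsad2: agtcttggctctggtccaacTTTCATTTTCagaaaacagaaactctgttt

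Of the 41 members, 32 had a promoter in that table, and 14 of these (43.8%) held the motif. Among all 27025 genes with a promoter of the same length, 1079 (3.99%) held it. The 14 members were Bst2, Ddx58, Eif2ak2, Ifih1, Ifit1, Ifit3, Ifitm3, Isg15, Oas1a, Oas1g, Oas3, Rsad2, Stat2 and Trim30a, the current symbol of Trim30. A match is a run of letters and not a site known to be bound. In Ddx58, Eif2ak2, Ifih1 and Ifitm3 the motif lay only in the bases after the gene's start. Members called in K14-TCL1 against WT and members not called there both held it. Among members called higher in K14-TCL1 than in WT, 8 of 17 with a promoter held it. Among tested members not called in that comparison, Eif2ak2 and Ifitm3 did, of 5. Ifitm3 was called lower in Tcl1-/- than in WT and in K14-TCL1.

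Most antiviral genes were higher in both mutants than in WT, and many were highest in K14-TCL1. Against WT, 20 of the 29 tested members rose in Tcl1-/- and 1 fell, where 14.4% of all tested genes were called higher and 12.2% lower. A gene was called at a limma adjusted p under 0.05 (Benjamini-Hochberg, over all 9731 tested genes). In K14-TCL1, 22 members were higher than in WT and 0 were lower, against 11.7% and 9.84% of all tested genes. Between the mutants, 17 members were lower in Tcl1-/- than in K14-TCL1 and 0 were higher, against 12.7% and 13.9% of all tested genes. At an unadjusted p under 0.05 (limma), 1 member was lower in K14-TCL1 than in WT and 0 were higher in Tcl1-/- than in K14-TCL1. Both comparisons with WT use the same 2 WT arrays, so their counts do not stand as separate evidence. Without K14-TCL1 replicate 2 the counts were 22 higher in K14-TCL1 than in WT and 16 lower in Tcl1-/- than in K14-TCL1. The mean of K14-TCL1 was the highest of the 3 for 24 of the 29. All arrays of Tcl1-/- lay above both WT arrays for 23 tested members (30.1% of all tested genes), all arrays of K14-TCL1 lay above both for 26 (27.3%), and all arrays of Tcl1-/- lay below all of K14-TCL1 for 19 (21%).

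The sizes of the differences moved as the counts did. The median log2 difference of the tested members was 0.31 for Tcl1-/- against WT, 0.55 for K14-TCL1 against WT and -0.21 for Tcl1-/- against K14-TCL1, where the medians of all tested genes were 0.0085, 0.0100 and 0.0001. By more than 1.5-fold, 6 members were higher in Tcl1-/- than in WT (1.51% of all tested genes) and 14 in K14-TCL1 (1.25%), and 6 were lower in Tcl1-/- than in K14-TCL1 (1.02%). Oas3, Oasl2, Ifit1 and Rtp4 had WT means under 5 and were tested only because a mutant was higher, so the sizes of their rises over WT are a description of dim values. The counts of members higher than WT include these 4, so they rest in part on members let in by their own rise. Oasl2, Ifit1 and Rtp4 are among the 6 in Tcl1-/-, where the others are Irf7, Parp14 and Rsad2. All 4 are among the 14 in K14-TCL1. Ifit1, tested only through K14-TCL1, is also among the 6 lower in Tcl1-/-. Over all 36 members with a probe set and with no filter on low intensities, 16 passed above WT in Tcl1-/- (9.04% of all 13201 genes) and 1 below it (7.26%). In K14-TCL1 23 passed above WT (6.94%) and 0 below it (5.48%), and 16 were lower in Tcl1-/- than in K14-TCL1 (7.48%). Their median differences were 0.24, 0.51 and -0.20.

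**Figure D1:**
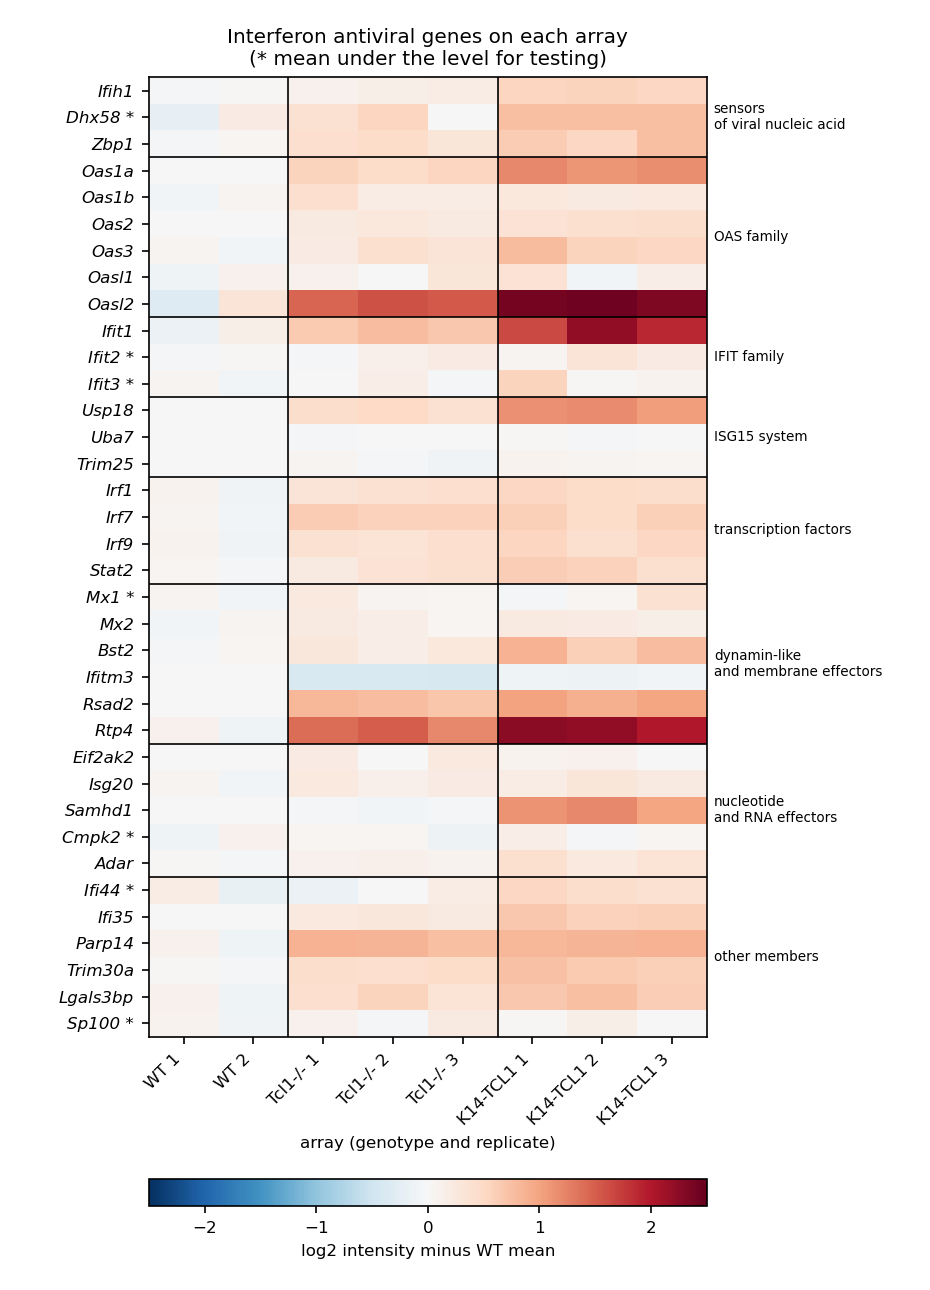
Heat map of the 36 members with a probe set (rows, by role) on the 8 arrays (columns, by genotype and replicate), with colour for the log2 intensity minus the WT mean of that gene. Red rows such as Oasl2, Rtp4 and Ifit1 are darker in K14-TCL1 than in Tcl1-/-, Ifitm3 is blue in Tcl1-/-, and asterisks mark the 7 members that were not tested.

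**Figure D2:**
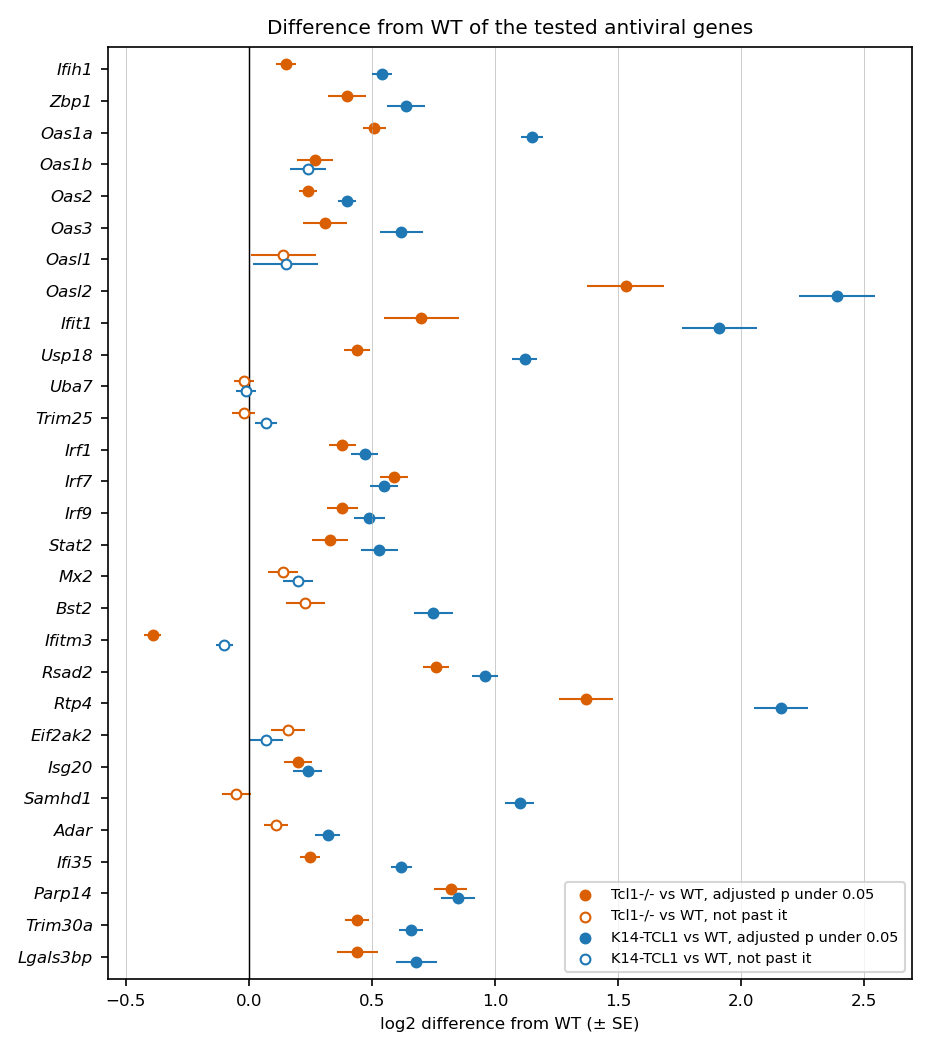
Log2 difference from WT (x axis, with the SE as bars) of the 29 tested members in Tcl1-/- (orange) and K14-TCL1 (blue), with filled points for an adjusted p under 0.05. The K14-TCL1 points reach 2.39 (Oasl2), and Ifitm3 at -0.39 is the only filled point left of 0. Both sets of points share the 2 WT arrays.

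The tested sensors of viral nucleic acid, each by its brightest probe set, were higher in both mutants. Ifih1 encodes MDA5, which detects long double-stranded RNA in the cytoplasm. It had log2 intensities of 8.42, 8.47 and 8.50 in Tcl1-/-, 8.85, 8.87 and 8.84 in K14-TCL1, and 8.28 and 8.35 in WT. The K14-TCL1 arrays stood clear of all others, and those of Tcl1-/- lay just above WT. The difference from WT was 0.54 ± 0.0407 (SE, adjusted p = 7.15e-05) in K14-TCL1 and 0.15 ± 0.0407 (adjusted p = 0.0262) in Tcl1-/-, with Tcl1-/- 0.39 below K14-TCL1 (adjusted p = 0.000249). The small rise in Tcl1-/- lost its call without WT replicate 1 (adjusted p = 0.189), without Tcl1-/- replicate 2 (adjusted p = 0.0657) or replicate 3 (adjusted p = 0.0752), and with no filter (adjusted p = 0.0524).

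Zbp1 encodes a sensor of nucleic acids in the Z form that can start cell death. Its log2 intensities were 5.93, 5.97 and 5.80 in Tcl1-/-, 6.14, 6.02 and 6.26 in K14-TCL1, and 5.45 and 5.56 in WT. On this, the brighter probe set, the 3 genotypes did not overlap. Zbp1 rose 1.32-fold in Tcl1-/- (adjusted p = 0.00666) and 1.56-fold in K14-TCL1 (adjusted p = 0.000864). The call in Tcl1-/- against WT was lost without WT replicate 1 (adjusted p = 0.0605). That between the mutants (adjusted p = 0.0338) was lost without replicate 1 or 3 of either (adjusted p = 0.0675 to 0.103). The dimmer probe set of Zbp1 showed no such rise, and its arrays overlapped in every comparison. It lay at -0.02 (Tcl1-/-) and 0.13 (K14-TCL1) from WT, with -0.14 between the mutants. When every probe set was tested it did not pass (limma, adjusted p = 0.948, 0.601 and 0.486). Dhx58, which encodes the related receptor LGP2, stayed under the level for testing, at 4.63, 4.78 and 4.25 in Tcl1-/-, 4.99 on each of the 3 K14-TCL1 arrays, and 4.04 and 4.44 in WT.

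The OAS genes encode enzymes that make 2-5A, the messenger that switches on RNase L, and Oasl1 and Oasl2 encode relatives that end in a ubiquitin-like part. Of 6 tested, 5 were higher in Tcl1-/- than in WT and 4 in K14-TCL1, and 4 were lower in Tcl1-/- than in K14-TCL1. Oasl2 had log2 intensities of 5.85, 5.98 and 5.92 in Tcl1-/-, 6.79, 6.82 and 6.72 in K14-TCL1, and 4.06 and 4.72 in WT. Each mutant group was tight, and the WT arrays, both dim, lay apart from each other. Oasl2 rose by 1.53 ± 0.155 on the log2 scale in Tcl1-/- (adjusted p = 0.000222) and by 2.39 ± 0.155 in K14-TCL1 (adjusted p = 3.18e-05), over a WT mean of 4.39 that lies under the level for testing. K14-TCL1 was 1.82-fold above Tcl1-/- (adjusted p = 0.00318).

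Oas1a encodes a catalytic form of the enzyme. It was well expressed, at log2 intensities of 8.18, 8.08 and 8.16 in Tcl1-/-, 8.82, 8.73 and 8.78 in K14-TCL1, and 7.64 and 7.61 in WT. The 3 genotypes formed 3 separate steps, each wider than the spread between its replicates. The rise over WT was 1.43-fold in Tcl1-/- (adjusted p = 0.000102) and 2.22-fold in K14-TCL1 (adjusted p = 1.92e-06), and K14-TCL1 was 1.55-fold above Tcl1-/- (adjusted p = 2.8e-05). Oas1a has near-identical neighbours, Oas1g among them, whose transcripts a probe set may not tell apart.

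Oas2, a catalytic form as well, had log2 intensities of 5.69, 5.72 and 5.69 in Tcl1-/-, 5.82, 5.87 and 5.89 in K14-TCL1, and 5.46 and 5.46 in WT. Oas3, which encodes the largest form, had 5.19, 5.39 and 5.30, then 5.77, 5.55 and 5.51, then 5.05 and 4.92, in the same order. Both rose in steps with no overlap, and by less than Oas1a. Oas2 was 0.24 above WT in Tcl1-/- (adjusted p = 0.00195) and 0.40 above it in K14-TCL1 (adjusted p = 0.000186), and the mutants differed by -0.16 (adjusted p = 0.00852). When the prior variance was let follow the intensity, that last call was lost (adjusted p = 0.0805). For Oas3 these values were 0.31 (adjusted p = 0.033), 0.62 (adjusted p = 0.0021) and -0.31 (adjusted p = 0.0216).

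The call of Oas3 in Tcl1-/- against WT was fragile. It was lost without WT replicate 1 or 2, or without Tcl1-/- replicate 2 or 3 (adjusted p = 0.0672 to 0.191), with no filter (adjusted p = 0.0546) and with quantile normalization repeated (adjusted p = 0.058). Between the mutants it was lost without Tcl1-/- replicate 1 (adjusted p = 0.0738) or 3 (adjusted p = 0.0576), or without K14-TCL1 replicate 1 (adjusted p = 0.0505). Oas1b, a transcribed pseudogene in the RefSeq table (which is of C57BL/6J), was 0.27 ± 0.0739 above WT in Tcl1-/- (adjusted p = 0.0304) and 0.24 ± 0.0739 in K14-TCL1 (adjusted p = 0.0506). Without WT replicate 1 or 2 the former lost its call (adjusted p = 0.201 and 0.0501), and without Tcl1-/- replicate 1 the latter passed (adjusted p = 0.0145). The mutants differed by 0.02 (adjusted p = 0.819). Oasl1 was 0.14 and 0.15 above WT, and its arrays overlapped in every comparison.

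**Figure D3:**
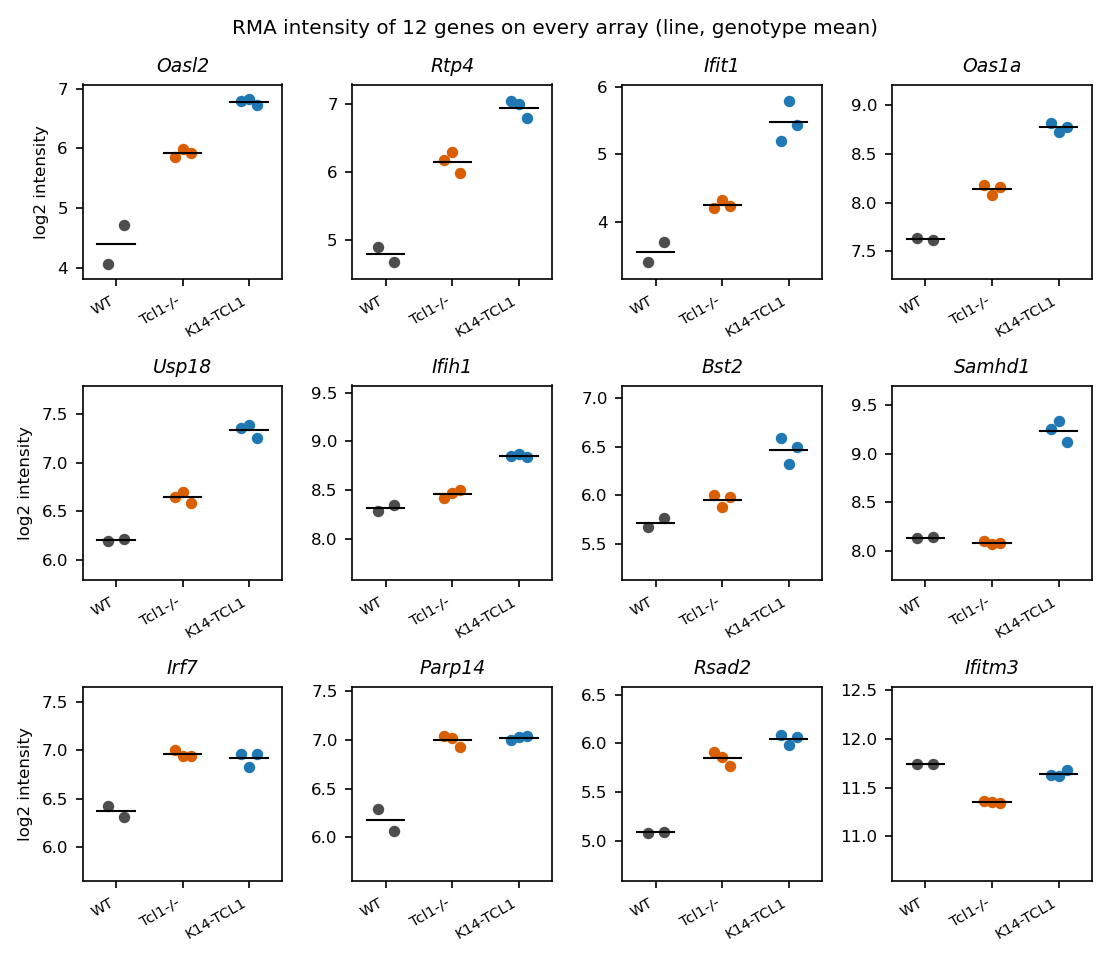
Log2 intensity (y axis, with a scale of its own in each panel) of 12 genes on each array, by genotype, with a line at the genotype mean. Oasl2, Rtp4, Ifit1, Oas1a, Usp18, Ifih1 and Bst2 rise from WT through Tcl1-/- to K14-TCL1, Samhd1 rises only in K14-TCL1, Irf7 and Parp14 stand at like heights in both mutants, and Ifitm3 is lowest in Tcl1-/-.

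Ifit1, which encodes a protein that binds RNA lacking the cap of the host's own messages, was dim. Its log2 intensities were 4.21, 4.32 and 4.23 in Tcl1-/-, 5.20, 5.78 and 5.43 in K14-TCL1, and 3.41 and 3.70 in WT. Only the K14-TCL1 arrays passed the level of 5, and the gene was tested only through them, so its differences describe dim values. K14-TCL1 lay 1.91 ± 0.152 above WT on the log2 scale (adjusted p = 9.77e-05), and Tcl1-/- lay -1.21 from K14-TCL1 (adjusted p = 0.000612). Tcl1-/- lay 0.70 ± 0.152 above WT (adjusted p = 0.0106). That last difference fell to 0.22 when the quantile normalization was repeated (adjusted p = 0.299), and to 0.55 without WT replicate 1 (adjusted p = 0.0897). Ifit2 and Ifit3, neighbours of Ifit1 with like roles, had group means of at most 4.45, and their log2 differences from WT were at most 0.22.

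The ISG15 system tags proteins with the small modifier ISG15. Usp18, the enzyme that removes the tag and also damps the interferon receptor, was the member of it with its own probe set that differed. It stood at 6.65, 6.70 and 6.59 in Tcl1-/-, 7.36, 7.39 and 7.25 in K14-TCL1, and 6.20 and 6.22 in WT. The genotypes formed 3 steps with no overlap. Usp18 was 1.36-fold above WT in Tcl1-/- (adjusted p = 0.000537) and 2.18-fold in K14-TCL1 (adjusted p = 4.5e-06), and K14-TCL1 was 1.61-fold above Tcl1-/- (adjusted p = 3.8e-05). Uba7, the enzyme that activates ISG15, and Trim25, a ligase of the system, had log2 differences of -0.10 to 0.07 over the 3 comparisons and did not pass the test. A dimmer probe set of Uba7 lay 0.35 above WT in Tcl1-/-, with no overlap, and 0.25 above it in K14-TCL1, and did not pass when every probe set was tested (adjusted p = 0.0998 and 0.247). Over the main probe sets the lowest adjusted p, 0.122, belonged to Trim25 between the mutants, which passed without Tcl1-/- replicate 1 (adjusted p = 0.043).

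The transcription factors of the response rose over WT in both mutants. All 4 were higher in each than in WT. Between the mutants 0 of 4 were called, and 1 had an unadjusted p under 0.05 (limma). Irf7, which drives the production of more interferon, had 7.0, 6.94 and 6.94 in Tcl1-/-, 6.96, 6.83 and 6.96 in K14-TCL1, and 6.43 and 6.31 in WT. The mutants overlapped, and both lay above WT. The rise was 1.51-fold in Tcl1-/- (0.59 ± 0.0563, adjusted p = 0.000156) and 1.46-fold in K14-TCL1 (0.55 ± 0.0563, adjusted p = 0.000353), with a difference between the mutants of 0.04 ± 0.0504.

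Irf1, which responds to both types of interferon, had log2 intensities of 8.14, 8.21 and 8.24 in Tcl1-/-, 8.33, 8.28 and 8.26 in K14-TCL1, and 7.90 and 7.74 in WT. Irf9, the DNA-binding part of ISGF3, had 8.73, 8.69 and 8.78 in Tcl1-/-, 8.89, 8.75 and 8.88 in K14-TCL1, and 8.44 and 8.27 in WT. In both genes the mutants were close together and clear of WT, though the Irf1 arrays of Tcl1-/- all lay below those of K14-TCL1. Irf1 was 1.3-fold above WT in Tcl1-/- (adjusted p = 0.00175) and 1.38-fold in K14-TCL1 (adjusted p = 0.000804), and Irf9 was 1.3-fold (adjusted p = 0.00344) and 1.4-fold (adjusted p = 0.00134) above it. The differences between the mutants were -0.09 ± 0.0501 for Irf1 and -0.11 ± 0.0569 for Irf9.

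Stat2, which encodes a part of ISGF3, had 6.30, 6.45 and 6.48 in Tcl1-/-, 6.69, 6.65 and 6.49 in K14-TCL1, and 6.12 and 6.04 in WT. It was 0.33 ± 0.074 above WT in Tcl1-/- (adjusted p = 0.0121) and 0.53 ± 0.074 in K14-TCL1 (adjusted p = 0.002). The former was lost without WT replicate 2 (adjusted p = 0.0841), and the difference between the mutants, -0.20 with an adjusted p of 0.0603, passed without K14-TCL1 replicate 3 (adjusted p = 0.0279). The dimmer probe set of Stat2 put the mutants in the other order, with 0.60 for Tcl1-/- and 0.45 for K14-TCL1 over WT, so no order of them is given for this gene.

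The effectors at membranes included both large rises and the only fall among the members. Rtp4, which encodes a chaperone of receptors that interferon induces, had 6.17, 6.30 and 5.98 in Tcl1-/-, 7.04, 7.0 and 6.79 in K14-TCL1, and 4.89 and 4.67 in WT. The 3 genotypes lay far apart. Over a WT mean of 4.78, also under the level for testing, Rtp4 rose by 1.37 ± 0.11 on the log2 scale in Tcl1-/- (adjusted p = 5.99e-05) and by 2.16 ± 0.11 in K14-TCL1 (adjusted p = 7.71e-06), and K14-TCL1 was 1.73-fold above Tcl1-/- (adjusted p = 0.000941).

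Rsad2 encodes viperin, a radical enzyme that makes a nucleotide which stops viral copying. It had log2 intensities of 5.91, 5.86 and 5.77 in Tcl1-/-, 6.09, 5.98 and 6.07 in K14-TCL1, and 5.08 and 5.09 in WT. Most of its rise was present in both mutants, at 1.69-fold in Tcl1-/- (adjusted p = 3.11e-05) and 1.95-fold in K14-TCL1 (adjusted p = 1.27e-05). The step between them was small, 0.20 ± 0.0478 on the log2 scale (adjusted p = 0.0166), and was lost without Tcl1-/- replicate 3 (adjusted p = 0.0513), K14-TCL1 replicate 1 (adjusted p = 0.0566) or K14-TCL1 replicate 3 (adjusted p = 0.0533).

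Bst2 encodes tetherin, which holds budding virus at the cell surface. It had 6.0, 5.88 and 5.98 in Tcl1-/-, 6.59, 6.32 and 6.50 in K14-TCL1, and 5.67 and 5.77 in WT. K14-TCL1 stood apart, 1.68-fold above WT (adjusted p = 0.000389) and 1.44-fold above Tcl1-/- (adjusted p = 0.00132). Tcl1-/- lay 0.23 ± 0.0779 above WT with an adjusted p of 0.0643, and this passed without K14-TCL1 replicate 1 (adjusted p = 0.0465) or 2 (adjusted p = 0.0195), which enter through the shared estimate of the spread.

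Ifitm3, whose product blocks the fusion of viruses in endosomes, was the brightest member and ran the other way. It had 11.36, 11.35 and 11.34 in Tcl1-/-, 11.63, 11.62 and 11.68 in K14-TCL1, and 11.74 on both WT arrays. The Tcl1-/- arrays lay below all others, and K14-TCL1 lay between. WT was 1.31-fold above Tcl1-/- (-0.39 ± 0.035, adjusted p = 0.000105), and K14-TCL1 was 1.23-fold above Tcl1-/- (adjusted p = 0.000474). K14-TCL1 lay -0.10 ± 0.035 from WT (adjusted p = 0.077), which passed when the prior variance was let follow the intensity (adjusted p = 0.00929). Mx1 and Mx2 encode dynamin-like proteins that trap viral cores, and both are transcribed pseudogenes in the RefSeq table. Mx1 was not tested, and Mx2 lay 0.14 above WT in Tcl1-/- (adjusted p = 0.125) and 0.20 above it in K14-TCL1 (adjusted p = 0.0508). Without Tcl1-/- replicate 3 both passed (adjusted p = 0.0483 and 0.0344), and without replicate 1 the latter did (adjusted p = 0.0482).

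Among the effectors that act on nucleotides and RNA, Samhd1 differed between the mutants the most. It encodes the enzyme that breaks down the deoxynucleotides a virus needs. Its log2 intensities were 8.10, 8.07 and 8.08 in Tcl1-/-, 9.25, 9.33 and 9.12 in K14-TCL1, and 8.13 and 8.14 in WT. On this, the brightest probe set, only K14-TCL1 was raised, and Tcl1-/- lay at the level of WT. K14-TCL1 was 2.14-fold above WT (1.10 ± 0.0584, adjusted p = 9.68e-06) and 2.22-fold above Tcl1-/- (adjusted p = 3.2e-06), while Tcl1-/- lay -0.05 ± 0.0584 from WT (adjusted p = 0.59). The 3 other probe sets of Samhd1 gave smaller values in the same directions, 0.46 to 0.49 for K14-TCL1 against WT and -0.44 to -0.34 for Tcl1-/- against K14-TCL1, each called when every probe set was tested. For Tcl1-/- against WT they lay at 0.03 to 0.15, of the other sign, and did not pass (limma, adjusted p = 0.0997 to 0.739). On the probe set at 0.15 all Tcl1-/- arrays lay above both WT arrays.

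Adar encodes the editor of double-stranded RNA that keeps it from being sensed. It had 6.73, 6.76 and 6.72 in Tcl1-/-, 7.02, 6.86 and 6.97 in K14-TCL1, and 6.65 and 6.60 in WT. K14-TCL1 was above both others, 1.25-fold above WT (adjusted p = 0.00312) and 1.16-fold above Tcl1-/- (adjusted p = 0.0103), and Tcl1-/- lay 0.11 above WT (adjusted p = 0.135). Isg20, an exonuclease, was 0.20 ± 0.0586 above WT in Tcl1-/- (adjusted p = 0.0391) and 0.24 ± 0.0586 in K14-TCL1 (adjusted p = 0.022). Without WT replicate 2 these were 0.13 (adjusted p = 0.254) and 0.17 (adjusted p = 0.156), and the former was also lost without Tcl1-/- replicate 1 (adjusted p = 0.111) or 3 (adjusted p = 0.0889) or K14-TCL1 replicate 3 (adjusted p = 0.0549). Eif2ak2, the kinase PKR that stops translation, lay 0.16 and 0.07 above WT with adjusted p values of 0.131 and 0.487. Without Tcl1-/- replicate 2 it was called higher in Tcl1-/- than in WT (adjusted p = 0.0159) and K14-TCL1 (adjusted p = 0.0463). Its dimmer probe set ran the other way, with all Tcl1-/- arrays below those of WT (-0.06) and K14-TCL1 (-0.07). When every probe set was tested these did not pass (limma, adjusted p = 0.343 and 0.205). Cmpk2, a mitochondrial nucleotide kinase, was dim, with log2 differences of -0.06 to 0.05.

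The patterns of the roles above recurred among the other members. Parp14, a mono-ADP-ribosyl transferase, had 7.04, 7.02 and 6.93 in Tcl1-/-, 7.0, 7.03 and 7.04 in K14-TCL1, and 6.29 and 6.06 in WT. The mutants overlapped, as they did for Irf7. The rise was 1.77-fold in Tcl1-/- (adjusted p = 6.93e-05) and 1.8-fold in K14-TCL1 (adjusted p = 0.0001), with -0.03 ± 0.0605 between them.

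Ifi35, a partner of NMI in innate signalling, had 8.05, 8.09 and 8.03 in Tcl1-/-, 8.48, 8.39 and 8.40 in K14-TCL1, and 7.79 and 7.82 in WT. Trim30a, a regulator of innate signalling, had 5.99, 5.98 and 6.02 in Tcl1-/-, 6.30, 6.21 and 6.15 in K14-TCL1, and 5.59 and 5.53 in WT. Both rose in 3 steps with no overlap. Ifi35 was 1.19-fold above WT in Tcl1-/- (adjusted p = 0.00307) and 1.53-fold in K14-TCL1 (adjusted p = 3.58e-05), and Trim30a was 1.35-fold (adjusted p = 0.000435) and 1.58-fold (adjusted p = 7.15e-05) above it. K14-TCL1 was 1.29-fold above Tcl1-/- for Ifi35 (adjusted p = 0.00033) and 1.17-fold for Trim30a (adjusted p = 0.00775).

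Lgals3bp, a secreted glycoprotein that binds galectins, had 6.60, 6.73 and 6.52 in Tcl1-/-, 6.85, 6.92 and 6.79 in K14-TCL1, and 6.29 and 6.06 in WT. It was 1.36-fold above WT in Tcl1-/- (adjusted p = 0.00586) and 1.6-fold in K14-TCL1 (adjusted p = 0.000972). The step between the mutants, -0.23 ± 0.0749, had an adjusted p of 0.0496. It lost its call without Tcl1-/- replicate 1 or 3 and without any 1 of the 3 K14-TCL1 arrays (adjusted p = 0.0637 to 0.148), and with no filter (adjusted p = 0.0792). Ifi44 was dim in all genotypes, with a mean of 3.86 in K14-TCL1, 0.44 above WT and untested, and Sp100, a nuclear body protein, differed by at most 0.11.

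Upstream of the members stand the interferons, their receptors and the relay that leads to interferon. Of 19 interferon genes listed, 9 had a probe set of their own, among them Ifnb1 and Ifng, and only Ifnz reached the level for testing. Ifnk, Ifne, Ifnl2 and Ifnl3 were among those with none, and they are not measured here. Ifnz was lower in K14-TCL1 than in WT (-0.29 ± 0.0873, adjusted p = 0.0498, lost with no filter at adjusted p = 0.0795) and higher in Tcl1-/- than in K14-TCL1 (0.38, adjusted p = 0.00879). Among the genes of the receptors and the JAK-STAT relay, Stat3 lay -0.26 from WT in Tcl1-/- (adjusted p = 0.00344) and -0.17 from it in K14-TCL1 (adjusted p = 0.0272), lower in both, the latter lost with no filter (adjusted p = 0.0528). Both chains of the type I receptor, Ifnar1 and Ifnar2, were measured at 6.94 and 7.07 in WT, with differences from it of -0.13 to 0.14 that did not pass the test (lowest adjusted p = 0.114).

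Of 12 tested genes of the relay between sensors and interferon, 1 rose and 2 fell in Tcl1-/- against WT, and 1 rose and 1 fell in K14-TCL1. Among all tested genes 14.4% rose and 12.2% fell in Tcl1-/-, and 11.7% and 9.84% in K14-TCL1, so these counts lie near the shares. The genes that rose were Irf8 in Tcl1-/- (0.27 ± 0.0558, adjusted p = 0.00904) and Tlr3 in K14-TCL1 (0.34 ± 0.083, adjusted p = 0.023). Mavs, the adaptor on mitochondria through which MDA5 signals, was lower in K14-TCL1 than in WT (-0.24 ± 0.0432, adjusted p = 0.00602) and lay 0.09 above it in Tcl1-/- (adjusted p = 0.174). Myd88, the adaptor of Toll-like receptors, was lower in Tcl1-/- than in WT (-0.18, adjusted p = 0.00586). Of 8 feedback inhibitors, 1 was higher than WT in Tcl1-/- (14.4% of all tested genes) and 2 in K14-TCL1 (11.7%), and 0 were lower. Socs3 was higher in both mutants, by 0.20 (adjusted p = 0.033) and 0.26 (adjusted p = 0.0127), the former lost with no filter (adjusted p = 0.0579). Pias1 was higher in K14-TCL1 only, by 0.13 (adjusted p = 0.0443), which was lost with no filter (adjusted p = 0.0836).

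Against WT, other genes that interferon induces went with the members, and between the mutants their lists differed. Of 21 tested antiviral genes outside the list, 13 rose and 0 fell in Tcl1-/- against WT (median 0.33), and 15 rose and 0 fell in K14-TCL1 (median 0.41). Among all tested genes 14.4% rose and 12.2% fell in Tcl1-/-, and 11.7% and 9.84% in K14-TCL1. At an unadjusted p under 0.05 (limma) the counts that fell were still 0 and 0. Between the mutants 10 were lower in Tcl1-/- and 2 higher (median -0.13), against 12.7% and 13.9% of all tested genes. The 2 were Ifitm2 (0.21, adjusted p = 0.0186) and Znfx1 (0.22, adjusted p = 0.0115). Ifi27l2a, a small mitochondrial protein gene, was 0.90 ± 0.0486 and 1.46 ± 0.0486 above WT (adjusted p = 7.49e-06 and 8.64e-07), and Lgals9, a galectin, was 0.11 ± 0.0417 and 0.67 ± 0.0417 above it (adjusted p = 0.0882 and 2.48e-05). Of 7 interferon-inducible GTPases, which interferon gamma also induces strongly, 6 were higher in Tcl1-/- than in WT (median 1.09) and 7 in K14-TCL1 (median 1.22), with 1 higher and 1 lower between the mutants (median -0.13). Cxcl10, a chemokine for T cells, was 1.33 ± 0.05 and 1.29 ± 0.05 above WT (adjusted p = 8.92e-07 and 1.82e-06), with 0.04 ± 0.0447 between the mutants.

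**Figure D4:**
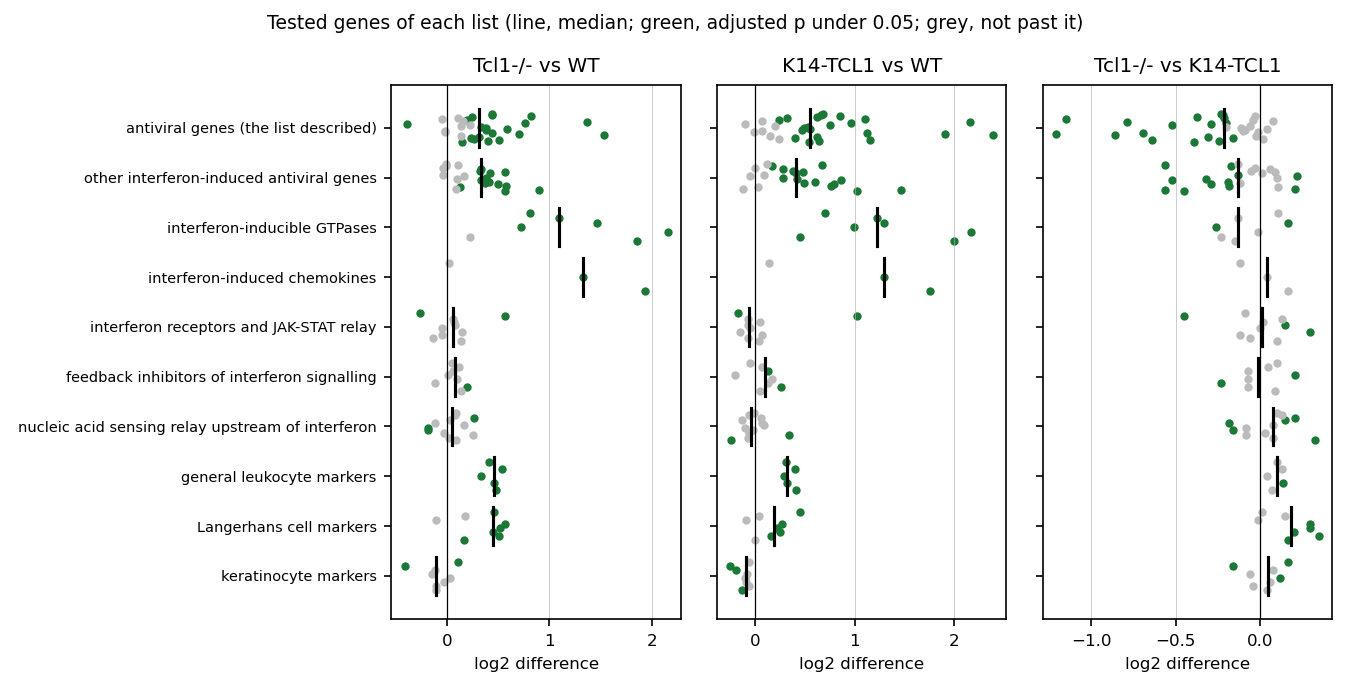
Log2 differences (x axis, with a range of its own in each panel) of the tested genes in 10 lists (rows) for the 3 comparisons, green for an adjusted p under 0.05 and grey for the rest, with a line at each list's median. The medians of the antiviral genes lie right of 0 against WT (0.31 and 0.55) and left of 0 in Tcl1-/- against K14-TCL1 (-0.21), where the median of the Langerhans cell markers is 0.18.

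Many markers of leukocytes in the sheets were also higher in the mutants than in WT, and the lists differed in which mutant stood higher. All 5 general leukocyte markers were higher in Tcl1-/- (median 0.46) and in K14-TCL1 (median 0.32) than in WT, with summed intensities of 1538 to 1603, 1439 to 1503, and 1145 to 1155. Of 8 Langerhans cell markers, 6 were higher in Tcl1-/- and 5 in K14-TCL1 than in WT, with sums of 9455 to 9827, 7889 to 7931, and 6840 to 7042 in WT. Their defining marker, Cd207, was 0.17 above WT in Tcl1-/- (adjusted p = 0.0238) and 0.00 in K14-TCL1 (adjusted p = 0.979). Of 7 epidermal T cell markers, 3 were higher and 1 lower in Tcl1-/-, and 4 higher and 1 lower in K14-TCL1, with sums of 2017 to 2085, 2258 to 2320, and 2205 to 2232 in WT. Of 6 markers of macrophages and neutrophils, 3 were higher and 1 lower in Tcl1-/- and 2 higher and 1 lower in K14-TCL1, with sums of 1589 to 1643, 1353 to 1441, and 1259 to 1312. Of 4 genes listed as markers of plasmacytoid dendritic cells, which make much interferon, 2 (Tcf4 and Ly6d) were higher in each mutant than WT. Of the others, 1 (Ccr9) was lower in Tcl1-/-. The 4 genes had sums of 8623 to 8810, 8298 to 8623, and 7348 to 7565 in WT. That WT sum lies above the one of the 8 Langerhans cell markers, and whether it came from plasmacytoid dendritic cells was not tested. Of 2 tested melanocyte markers, Dct was 0.42 and 0.49 above WT (adjusted p = 0.00182 and 0.00124), and the 4 measured summed to 162 to 179, 174 to 186, and 143 to 149. The part of these cells in the rise of the antiviral genes over WT was not tested.

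Between the mutants the marker lists differed in direction. Of the antiviral genes, 17 of 29 were lower in Tcl1-/- than in K14-TCL1. Higher there were 5 of 8 Langerhans cell markers, 1 of 5 general leukocyte markers and 2 of 6 markers of macrophages and neutrophils. Of these markers 0 were lower, also at an unadjusted p under 0.05 (limma). Among all tested genes 13.9% were called higher and 12.7% lower, so a count of 0 or 1 in 5 or 6 genes lies near these shares. The part of these cells in the antiviral difference between the mutants was not tested. Of the T cell markers, 4 of 7 were lower in Tcl1-/-, among them Cd3d (-0.39 ± 0.0547, adjusted p = 0.0016), while Cd3e lay at -0.08 (adjusted p = 0.118). The markers of plasmacytoid dendritic cells and melanocytes did not pass the test between the mutants, and Ccr9 lay at -0.18 (adjusted p = 0.0507). Of 8 KC markers, Lor was higher and Itga6 lower in Tcl1-/- than in WT, and Krt5, Col17a1 and Itga6 were lower in K14-TCL1. Itga6, the integrin of basal KCs, lay -0.41 from WT in Tcl1-/- (adjusted p = 0.000623) and -0.25 in K14-TCL1 (adjusted p = 0.00916). At an unadjusted p under 0.05, 5 of 8 were lower in each mutant. The KC markers had medians of -0.10, -0.10 and 0.05 in the 3 comparisons and sums of 92355 to 93205 in Tcl1-/-, 88304 to 89049 in K14-TCL1, and 94859 to 95325 in WT.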

How the data were processed

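Epidermal RNA of 8 samples (3 Tcl1-/-, 3 K14-TCL1, 2 WT) was measured on 1-colour arrays, 1 array each. The deposited values are RMA intensities (background-corrected, quantile-normalized and summarised by the authors) on a linear scale, from 4.92 to 20952 over 22690 probe sets, and the series value table held the same values (0 differed). They were set to log2 here. The number of arrays limits the precision. No source used here gives the genome build of the probe sets. The study's methods state 3 animals a genotype, and 1 of WT is not analysed here.

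Control probe sets (64), those without a name (492) and those with several names (578) were left out. Of the 21556 others, 19478 names were current symbols in the RefSeq table of GRCm38.p6, 1633 were updated with it and 445 were kept. Each gene was represented by its brightest probe set. A gene was tested if a genotype mean reached 5, which left out 3470. The 9731 others were fitted with limma 3.58.1 (R 4.3.3) over all 8 arrays, with genotype as the only term, 5 residual and 3.32 prior degrees of freedom, and Benjamini-Hochberg adjustment. The fit was tested on simulated data. Differences are of log2 means, named first minus second. Lists were described by counts and medians, and a result of the receptor and relay list is not reported here. The members and lists were chosen with earlier results of these data known. Each tested member called with a log2 difference of at least 0.3 is given on every array. Other pathway genes were named among the up to 4 with the smallest p in a list, with further genes (Ifnar1, Ifnar2, Tlr3, Ifitm2, Znfx1 and the cell type markers) chosen after their values were seen. Figures were drawn with matplotlib 3.10.9. Alternatives covered the filter, the choice of probe set, the scaling, the prior variance, the samples fitted, the threshold, the replicate block and each array left out. Replicates of a genotype are separate animals by the study's methods, and the p-values measure their spread.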

Additional observations from a re-analysis of the deposited data

Results flagged for a closer look

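Probe sets that carry the name of a member together with another gene's name were left out of the tests. In 2 of them the arrays of both mutants lay above both WT arrays. The probe set of Isg15 and Gm9706 had log2 intensities of 7.36, 7.22 and 7.29 in Tcl1-/-, 7.52, 7.59 and 7.76 in K14-TCL1, and 5.86 and 5.97 in WT. It stood 1.38 above WT in Tcl1-/-, and in K14-TCL1 by 1.71. The probe set of Uba7 and Cdh29 stood 0.48 above WT in Tcl1-/- and 0.42 above it in K14-TCL1, where the probe sets of Uba7 alone lay at -0.02 and -0.01 (the brighter) and at 0.35 and 0.25 (the dimmer). Which of the named genes gave the signal was not tested. Groups of 2 or 3 arrays are too small to look for a single array that stands out.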

How the results depend on the processing

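No member changed direction while called under any alternative run. Of the calls, 14 of 21 (Tcl1-/- against WT), 21 of 22 (K14-TCL1 against WT) and 11 of 17 (Tcl1-/- against K14-TCL1) held in all of them that tested the gene. With every probe set tested, both checks followed only the brightest probe set of each member, so its other probe sets could not change them. Zbp1 thus counts as held in K14-TCL1 against WT, where its dimmer probe set did not pass. A highest genotype mean of at least 6 left out Oas2, Oas3 and Ifit1, and a mean over all arrays of at least 5 left out Ifit1. The lost ones are Ifih1, Oas1b, Stat2, Isg20, Zbp1, Oas3 and Ifit1 in the first, Isg20 in the second, and Adar, Lgals3bp, Zbp1, Rsad2, Oas2 and Oas3 in the third. At an unadjusted p under 0.001, 1242, 962 and 1142 genes were called in the 3 comparisons (2593, 2096 and 2592 at the adjusted p), and 11 members in place of 17 were lower in Tcl1-/- than in K14-TCL1. The median of the members in Tcl1-/- against WT, 0.31, was 0.24 with no filter and with every probe set tested, and 0.25 with quantile normalization repeated. In K14-TCL1 against WT, 0.55 became 0.49 with every probe set tested. A prior variance that follows the mean called 1 member, Ifitm3, lower in K14-TCL1 than in WT.

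With 1 array left out in turn, 15 to 21 members were higher in Tcl1-/- than in WT, 21 to 24 higher in K14-TCL1 than in WT, and 13 to 17 lower and 0 to 1 higher in Tcl1-/- than in K14-TCL1. The count lower in Tcl1-/- than in WT stayed at 1 and in K14-TCL1 at 0. All genes called were 1415 to 2924, 970 to 2209 and 1780 to 2576, lowest without WT replicate 1 against WT (1415 and 970), with 1572 and 1053 without WT replicate 2. The medians were 0.29 to 0.36, 0.54 to 0.59 and -0.23 to -0.18. Where WT or another genotype kept 1 array fewer, the spread was still pooled over all genotypes.

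The deviations of same-numbered arrays from their genotype means correlated at -0.061 to 0.057, and those of differently numbered arrays at -0.057 to 0.056. These values gave no sign that replicate numbers pair the samples. They cannot exclude a pairing, because the deviations within a genotype of so few arrays must cancel out. With the replicate number as a block, 16 members rose and 1 fell in Tcl1-/- against WT, 22 rose and 0 fell in K14-TCL1 against WT, and against K14-TCL1 the Tcl1-/- arrays gave 15 lower and 0 higher. Under the block 2048, 1540 and 2130 of all genes were called, and the members' medians were 0.34, 0.55 and -0.21.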
